A study of Mus musculus with 4 samples.

Results

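The 10 mouse genes *Fzd1*, *Fzd4*, *Fzd5*, *Fzd6*, *Fzd7*, *Fzd8*, *Lrp5*, *Lrp6*, *Ror2* and *Wnt5a* encode receptors, co-receptors and a ligand of the Wnt pathway. They were taken by gene symbol from a table of read counts for 36144 gene names, in which all 10 were present. Of the 10, 6 were Frizzled genes, and the mouse table held 10 Frizzled genes in all. Each of the 10 had more than 10 counts in every one of the 4 libraries, and so passed a filter, set at more than 10 counts in 2 or more libraries, that 13979 gene names passed (the tested genes).

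The libraries were bulk RNA-seq of mouse colonoids, which are 3-dimensional cultures grown from the epithelial crypts of the colon, and the comparison asked how butyrate, a short-chain fatty acid made by gut bacteria, alters gene expression in them. Colonoids were left untreated or given 2 mM sodium butyrate and collected at 48 h (day 2) or 72 h (day 3), with 1 library for each of the 4 conditions. All 4 conditions shared their origin, a male mouse aged 24 weeks that the labels call WT, whereas the study's text gives Hes1-GFP mice for the colonoid RNA-seq. They also shared passage 3 and a medium with EGF at 40 ng/ml, Noggin at 200 ng/ml, R-spondin at 500 ng/ml, the GSK3 inhibitor CHIR99021 at 3 µM and the ROCK inhibitor Y-27632 at 10 µM. No Wnt ligand is named in that medium, and CHIR99021 acts below the receptors described here, which limits the cultures as a model of signalling through them.

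Frizzled proteins span the membrane several times and bind Wnt ligands at their outer, cysteine-rich domain. Together with the single-pass co-receptors Lrp5 and Lrp6 they form the complex that, once a Wnt has bound, stabilises β-catenin and so maintains stem cells at the base of intestinal crypts. Wnt5a is the best known ligand of the β-catenin-independent branch, in which the receptor tyrosine kinase Ror2 acts with Frizzled, and in the gut it is made mainly by mesenchymal cells under the epithelium. R-spondins act on Lgr receptors to protect Frizzled and Lrp6 from the ubiquitin ligases Znrf3 and Rnf43, which otherwise clear them from the cell surface.

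Library totals lay between 20790225 and 24207840 counts, of which genes of the mitochondrial genome took between 14.1% and 18.4%. Values are given as normalised read counts, meaning counts divided by DESeq2 size factors, and as log2 fold changes after adding a pseudocount of 1. Within each pair of values at a time, the untreated library comes before the butyrate library. Intervals in parentheses are 95% intervals from the counts and cover counting error only. As each condition had 1 library, no difference could be set against the spread between replicates, and no p-value is given. All 10 of 10 epithelial marker genes passed the filter, with *Krt8*, a keratin of simple epithelia, at 32362 to 40538 counts. Of 15 mesenchymal marker genes 4 passed, and *Col3a1*, *Lum* and *Foxl1* were at 0 counts in every library.

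Butyrate was accompanied by differences in individual receptor genes in both directions rather than by a shared direction. *Fzd1* and *Fzd8* were lower with butyrate at both times, *Ror2* was higher at both times, and *Lrp5* and *Lrp6* were slightly higher at both times. *Fzd5*, the Frizzled gene with the highest level, was 1.38-fold higher with butyrate at 48 h and 1.41-fold lower at 72 h. *Wnt5a*, the ligand, was 2.10-fold lower at 72 h. The median log2 fold change over the 10 genes was 0.13 at 48 h, when 6 were higher and 4 lower, against −0.01 over all tested genes. At 72 h it was 0.01, with 5 higher and 5 lower (*Fzd4*, at −0.04, was at 0.01 with total count scaling), against 0.00 over all tested genes. The median size of the change regardless of direction was 0.28 for the 10 genes and 0.27 for all tested genes at 48 h, and 0.27 and 0.21 at 72 h.

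A change of at least 2-fold was reached by 0 of the 10 genes at 48 h, when 10.0% of all tested genes reached it in either direction. At 72 h it was reached by 1 of the 10, *Wnt5a*, against 8.31% of all tested genes. With a threshold of 1.5-fold, 2 of the 10 passed at 48 h, *Fzd1* and *Fzd8*, against 22.0% of tested genes, and 2 passed at 72 h, *Ror2* and *Wnt5a*, against 18.0%. The numbers of genes from this set past either threshold were thus near those that the share of all genes would give.

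**Figure D1:**
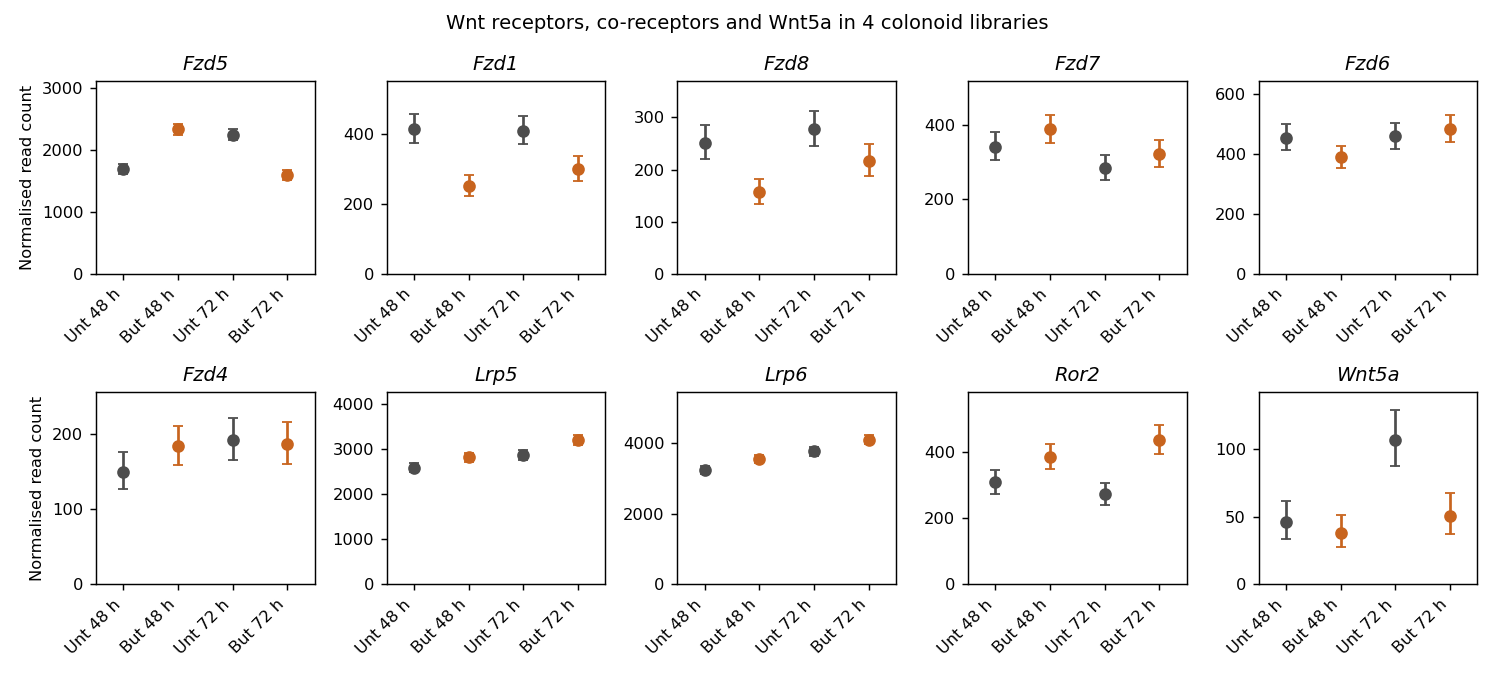
Normalised read counts (vertical axes, each starting at 0) of the 10 genes in the untreated (Unt, grey) and butyrate (But, orange) libraries at 48 h and 72 h, with 95% intervals of the counts that cover counting error only. *Fzd1* and *Fzd8* lie lower in both butyrate libraries, *Fzd5* is high in butyrate at 48 h and untreated at 72 h, and *Wnt5a* stands highest in the untreated library at 72 h.

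Promoter sequence is shown for a gene of each pattern, *Fzd5* (opposite directions at the 2 times), *Fzd1* (lower at both) and *Ror2* (higher at both), so that their GC boxes can be compared. Each run is the 250 bases before the RefSeq start of the gene in GRCm38.p6, read 5′ to 3′ on the strand of the gene, and capitals mark GGGCGG or its reverse complement CCGCCC. The windows are chr1:64737751-64738000 on the minus strand for *Fzd5*, chr5:4758217-4758466 on the minus strand for *Fzd1* and chr13:53286125-53286374 on the minus strand for *Ror2*. The RefSeq start lies 1 base from the GENCODE start for *Fzd5* and 0 bases from it for *Ror2*, but 181 bases upstream of it for *Fzd1* and 277 for *Fzd7*, so those windows lie farther from the GENCODE gene.
Fzd5: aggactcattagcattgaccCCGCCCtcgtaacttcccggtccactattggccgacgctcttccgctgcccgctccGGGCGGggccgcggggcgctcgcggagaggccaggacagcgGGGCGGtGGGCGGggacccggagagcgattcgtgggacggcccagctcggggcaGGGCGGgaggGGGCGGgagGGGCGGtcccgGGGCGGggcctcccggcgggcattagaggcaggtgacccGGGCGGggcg
Fzd1: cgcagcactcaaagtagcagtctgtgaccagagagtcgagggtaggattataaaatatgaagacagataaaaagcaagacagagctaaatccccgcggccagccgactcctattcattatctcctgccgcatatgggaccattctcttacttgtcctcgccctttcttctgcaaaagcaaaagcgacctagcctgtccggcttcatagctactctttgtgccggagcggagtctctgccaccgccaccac
Ror2: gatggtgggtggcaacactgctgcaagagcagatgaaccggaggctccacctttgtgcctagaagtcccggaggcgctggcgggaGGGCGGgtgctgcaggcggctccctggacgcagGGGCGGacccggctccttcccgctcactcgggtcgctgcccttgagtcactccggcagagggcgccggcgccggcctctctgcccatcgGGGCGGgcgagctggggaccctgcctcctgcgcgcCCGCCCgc

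The letters GGGCGG, the core of the GC box bound by Sp-family factors, were found on either strand 9 times in the *Fzd5* window, between positions −230 and −10 from the start. As many matches were held by 0.0731% of the 32851 RefSeq windows of the same length, and 32.7% of them held at least 1. *Ror2* had 4 matches, reached in 4.09% of windows, and *Fzd1* had 0. Among the other members with an entry, *Fzd4* had 7 matches (chr7:89404116-89404365, plus strand) and *Fzd7* had 6 (chr1:59481897-59482146, plus strand). GC content was 76.4% for *Fzd5*, 73.2% for *Ror2* and 51.2% for *Fzd1*, with a median of 52.4% over all windows. Neither CACGTG nor CTTTGAT, a TCF/LEF site in the β-catenin pathway, was found on either strand in the 5 windows, while 6.02% and 3.21% of all windows held them. These are matches of letters, counted with overlaps between the GC boxes allowed. The genes without an entry were *Fzd6*, *Fzd8*, *Lrp5*, *Lrp6* and *Wnt5a*.

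*Fzd5* encodes a Frizzled receptor needed in the intestine for Paneth cell maturation, and lies on chromosome 1 from 64730558 to 64737751 on the minus strand of GRCm38, with 2 exons. At 48 h it had 1652 counts untreated against 2574 with butyrate, and at 72 h it had 2276 against 1477. Scaled to normalised counts, the 4 values became 1689, 2335, 2247 and 1595. The butyrate library was thus the higher of the pair at 48 h and the lower at 72 h. The log2 fold change with butyrate at 48 h was 0.47 (0.38 to 0.56), that at 72 h was −0.49 (−0.59 to −0.40), and the shift between the times was −0.96 (−1.09 to −0.83). Opposite directions with both intervals apart from 0 were seen in 9.86% of all tested genes, and in 1 of the 10 genes, *Fzd5*. Bulk RNA does not tell fewer cells of a type from less RNA per cell, for this gene or any other given here.

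The time course of *Fzd5* differed between the cultures in the same 4 libraries. Without butyrate its normalised count was higher at 72 h than at 48 h by 0.41 (0.32 to 0.50) on the log2 scale, and with butyrate it was lower at 72 h by the log2 value −0.55 (−0.64 to −0.46). Each of these comparisons shares a library with the comparisons by treatment, so they hold the same 4 values seen another way. From high to low, the libraries ran butyrate 48 h, untreated 72 h, untreated 48 h and butyrate 72 h, an order shared by 4.14% of tested genes. Of 10 epithelial marker genes 5 were higher and 5 lower with butyrate at 48 h, and 1 was higher and 9 lower at 72 h, whereas 51.3% and 49.7% of all tested genes were lower at these times. The marker genes with the *Fzd5* order, picked after their values were seen, included *Krt20*, a keratin of differentiated surface cells, with 2365 against 3294 counts at 48 h, and 2637 against 1439 at 72 h (untreated, then butyrate), and *Car1*, a carbonic anhydrase of the colonic surface, with 19941 against 49510 counts at 48 h, and 35077 against 17453 at 72 h. The stem cell receptor *Lgr5* had exactly the reverse order, with 7380 against 4341 counts at 48 h, and 5108 against 8068 at 72 h. Other genes of the same lists did not follow either order exactly. *Cdh1* (0.24 and −0.07), *Cdx2* (0.13 and −0.16), *Krt8* (0.09 and −0.17) and *Krt19* (0.07 and −0.24) had the signs of *Fzd5* at both times. The intervals of these epithelial markers excluded 0, whereas *Krt18* had the opposite signs (−0.17 and 0.15). *Vil1*, a microvillus protein gene, and *Cldn7*, a tight junction gene, were lower with butyrate at both times, at −0.23 and −0.28 and at −0.38 and −0.26. *Epcam* (−0.05 and −0.14) and *Cdx1* (−0.02 and −0.35) were lower at both times too. The stem cell factor gene *Ascl2* was higher at both, at 0.19 and 0.47. The part that markers of differentiated and stem cells have in the *Fzd5* values was not tested.

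Of the 31-base words in *Fzd5* transcripts, 17.2% also occur in transcripts of other genes, the largest number in *Gm38058*, annotated on the opposite strand over *Fzd5*. Reads from a gene and its antisense partner cannot be told apart without strand, and whether strand was used in counting is not given in the sources used here. The *Fzd5* values carry this limit at both times. The count data held no entry named *Gm38058*, nor one for *Gm26704* or *Gm2670*, the antisense partners of *Fzd6* and *Wnt5a*.

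*Fzd1*, on chromosome 5 from 4753839 to 4758035 (minus strand, a single exon), encodes a receptor that can act with Lrp6 in β-catenin signalling. It had 415 normalised counts untreated against 251 with butyrate at 48 h, and 411 against 300.2 at 72 h. Both butyrate libraries lay below both untreated libraries, which differed little from each other. The butyrate value was 1.65-fold lower at 48 h, or −0.72 (−0.95 to −0.50) as log2, and 1.37-fold lower at 72 h, or −0.45 (−0.68 to −0.23). Between the times the difference shifted by 0.27 (−0.04 to 0.58), which counting error alone covers.

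*Fzd8*, on chromosome 18 from 9212163 to 9218136 (plus strand, a single exon), encodes a receptor whose cysteine-rich domain is widely used to bind Wnts. It had 252 untreated against 156 butyrate normalised counts at 48 h, and 277 against 217 at 72 h. As for *Fzd1*, both untreated libraries were above both butyrate libraries, and the library at 48 h with butyrate was the lowest. With butyrate it was 1.61-fold lower at 48 h, or −0.69 (−0.98 to −0.40) as log2, and 1.28-fold lower at 72 h, or −0.35 (−0.62 to −0.09). With butyrate, *Fzd8* was higher at 72 h than at 48 h by 0.47 (0.18 to 0.78), and *Fzd1* by 0.26 (0.01 to 0.50). In the untreated cultures the same values were 0.14 (−0.11 to 0.39) for *Fzd8* and −0.02 for *Fzd1*. *Fzd1*, *Fzd8* and *Wnt5a* were the 3 of the 10 genes lower with butyrate at both times, a pattern held by 31.3% of all tested genes. *Fzd1* and *Fzd8* were the 2 of them with both intervals below 0, against 13.6% of tested genes.

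*Fzd7*, a receptor known to serve intestinal stem cells, lies on chromosome 1 from 59482424 to 59486955 (plus strand, a single exon). Its normalised counts at 48 h were 341 untreated against 387 with butyrate, and at 72 h they were 282 against 321. The butyrate library was the higher at each time, but the log2 fold changes of 0.19 (−0.02 to 0.40) and 0.18 (−0.06 to 0.42) had intervals that held 0, so that no difference was detectable at this depth. Time went with a lower value in both cultures, −0.27 (−0.50 to −0.04) untreated and −0.27 (−0.49 to −0.06) with butyrate.

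*Fzd4*, the receptor for Norrin as well as Wnts (chromosome 7 from 89404355 to 89413134, plus strand, 2 exons), had 149 against 183 normalised counts at 48 h, and 192 against 186 at 72 h. The untreated library at 48 h was the lowest and the other 3 lay close together. Neither the log2 fold change at 48 h, 0.29 (−0.02 to 0.61), nor that at 72 h, −0.04 (−0.35 to 0.26), was beyond counting error. In *Fzd6*, whose product is known from planar cell polarity of hair and skin (chromosome 15 from 39006034 to 39038188, plus strand, 7 exons), the normalised counts were 455 against 389 at 48 h, and 459 against 483 at 72 h. The butyrate library at 48 h was the lowest, with a log2 fold change of −0.22 (−0.42 to −0.03), against 0.07 (−0.12 to 0.26) at 72 h. The shift between the times was 0.30 (0.03 to 0.56). *Fzd6* shares 2.66% of its 31-base words with other genes, most with the antisense *Gm26704*.

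**Figure D2:**
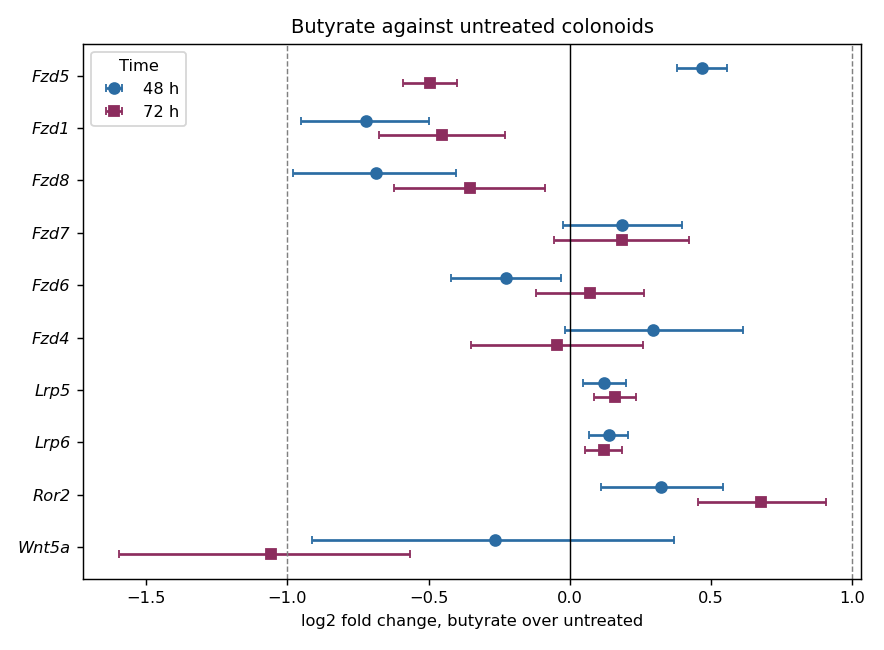
Log2 fold change of butyrate over untreated (horizontal axis) for each gene at 48 h (circles) and 72 h (squares), with exact 95% intervals from the pair of counts and dashed lines at 2-fold. The *Fzd5* points lie on opposite sides of 0, those of *Fzd1* and *Fzd8* lie below 0, and the *Wnt5a* point at 72 h lies at −1.06.

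Per kb of exon, the scale on which genes can be compared, *Fzd5* took the largest share of the Frizzled transcripts in all 4 libraries. Of the summed normalised counts per kb of the 10 Frizzled genes, its share at 48 h was 34.0% (32.6 to 35.5) untreated against 43.7% (42.3 to 45.1) with butyrate. At 72 h it was 42.1% (40.7 to 43.5) against 32.6% (31.1 to 34.0). The share was thus high in the same 2 libraries as the level. The *Fzd1* share was 13.8% against 7.74% at 48 h, and 12.7% against 10.1% at 72 h, the lower value being that with butyrate at both times. The *Fzd8* share was 5.86% against 3.38% at 48 h, and 6.02% against 5.13% at 72 h. For *Fzd6* the shares ran from 10.4% to 14.1%, for *Fzd7* from 8.07% to 11.0% and for *Fzd4* from 3.09% to 3.90%.

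The summed Frizzled level differed less than its makeup. At 48 h it came to 718 normalised counts per kb untreated against 774 with butyrate (butyrate to untreated ratio 1.08), and at 72 h to 772 against 709 (ratio 0.918). Without *Fzd5* the sums were 474 against 436 at 48 h, and 447 against 478 at 72 h, with ratios of 0.920 and 1.07, so that the direction at each time was the opposite of that with *Fzd5* included. The *Fzd7* to *Fzd1* ratio per kb was 0.760 (0.655 to 0.880) untreated and 1.43 (1.22 to 1.67) with butyrate at 48 h. At 72 h it was 0.637 (0.546 to 0.742) and 0.989 (0.837 to 1.17). The ratio was thus higher with butyrate at both times, and it passed 1 at 48 h. The *Fzd5* to *Fzd8* ratio was 5.80 (5.07 to 6.66) against 12.9 (11.1 to 15.2) at 48 h. At 72 h it was 7.00 (6.18 to 7.95) against 6.35 (5.475 to 7.39), with intervals that overlapped.

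**Figure D3:**
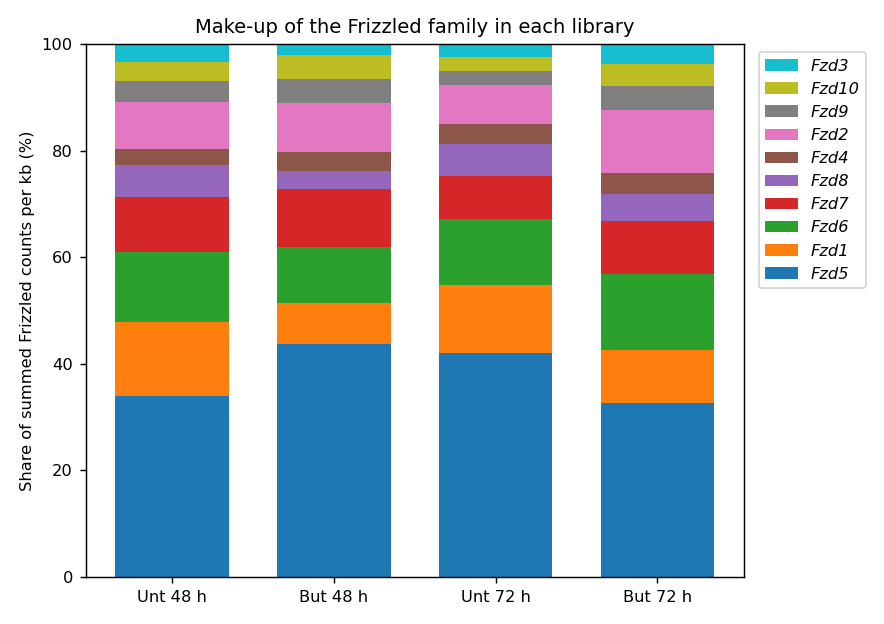
Share of each of the 10 Frizzled genes in their summed normalised counts per kb of exon (vertical axis, %) in the untreated (Unt) and butyrate (But) libraries at 48 h and 72 h. The *Fzd5* share, at the bottom of each bar, is 34.0%, 43.7%, 42.1% and 32.6% from left to right, and the *Fzd1* share above it is lowest in butyrate at 48 h.

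The other 4 Frizzled genes passed the filter too. *Fzd2*, close in sequence to *Fzd1* and *Fzd7*, had 224 against 285 counts at 48 h, and 213 against 283 at 72 h, with log2 fold changes of 0.17 (−0.08 to 0.43) and 0.54 (0.28 to 0.80). It was therefore not lower with butyrate in the way *Fzd1* was. *Fzd3*, a receptor of axon guidance and planar polarity, had 300 against 225 counts at 48 h, and 250 against 314 at 72 h. Its log2 fold changes of −0.59 (−0.84 to −0.33) and 0.46 (0.21 to 0.70) had the signs opposite to those of *Fzd5* at both times, and its library order was the exact reverse. *Fzd10* was at 0.45 (0.05 to 0.88) and 0.50 (0.03 to 0.99). *Fzd9* was at 0.24 and 0.73, the latter with an interval of 0.18 to 1.32. *Fzd1* shares 1.61% and *Fzd7* 0.777% of its 31-base words with another gene, in each case most with *Fzd2*.

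*Lrp5* and *Lrp6* encode the co-receptors that, once phosphorylated at the inner side of the membrane, bind Axin. *Lrp5* lies on chromosome 19 from 3584828 to 3686564 and *Lrp6* on chromosome 6 from 134446476 to 134566965, both on the minus strand with 23 exons. *Lrp5* had 2593 untreated against 2822 butyrate normalised counts at 48 h, and 2872 against 3209.9 at 72 h. *Lrp6* had 3229 against 3551 at 48 h, and 3760.0 against 4086 at 72 h. Both genes ran in the same order over the libraries, from the untreated library at 48 h as the lowest to the butyrate library at 72 h as the highest, an order held by 3.29% of tested genes.

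The differences in *Lrp5* and *Lrp6* were small and, with 2536 to 3914 counts behind each value, larger than counting error. With butyrate *Lrp5* was higher by 0.12 (0.05 to 0.20) at 48 h and 0.16 (0.09 to 0.23) at 72 h on the log2 scale, and *Lrp6* by 0.14 (0.07 to 0.21) and 0.12 (0.05 to 0.19). From 48 h to 72 h they were higher by 0.15 and 0.22 untreated, and by 0.19 and 0.20 with butyrate. Per kb of exon the *Lrp6* to *Lrp5* ratio lay between 0.887 and 0.932 in the 4 libraries. Which of the pair is higher depends on the length used, since with the longest transcript of each in place of all its exons the ratio was 1.18 to 1.24.

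*Ror2*, on chromosome 13 from 53109312 to 53286124 (minus strand, 9 exons), had 308 untreated against 386 butyrate normalised counts at 48 h, and 273 against 436 at 72 h. Both butyrate libraries were above both untreated ones. It was 1.25-fold higher at 48 h, or 0.32 (0.11 to 0.54) as log2, and 1.60-fold higher at 72 h, or 0.68 (0.45 to 0.91). Its difference was larger at 72 h by 0.35 (0.05 to 0.66). *Ror2* shared its library order with *Fzd2* and with 3.59% of tested genes, and 0 of its 31-base words occur in another gene. Higher values with butyrate at both times were found for 4 of the 10 genes, *Fzd7*, *Lrp5*, *Lrp6* and *Ror2*, and for 30.4% of all tested genes. With both intervals above 0 they were 3, *Lrp5*, *Lrp6* and *Ror2*, against 12.9% of tested genes.

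*Wnt5a*, on chromosome 14 from 28504750 to 28527448 (plus strand, 5 exons), had the fewest counts of the 10 genes. Untreated against butyrate, it had 45 against 42 counts at 48 h, and 108 against 47 at 72 h, which scaled to 46.0, 38.1, 106.6 and 50.8 normalised counts. The untreated library at 72 h stood above the other 3, which did not differ beyond counting error. At 48 h the log2 fold change with butyrate was −0.27 (−0.91 to 0.37), within counting error at this depth, and at 72 h it was −1.06 (−1.60 to −0.56). The shift between the times was −0.79, with an interval of −1.57 to −0.01 that barely excluded 0.

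From 48 h to 72 h *Wnt5a* was 2.32-fold higher in the untreated cultures, a log2 difference of 1.20 (0.70 to 1.75), and with butyrate the difference was 0.40 (−0.22 to 1.05). The first of these and the butyrate comparison at 72 h both rest on the untreated library at 72 h. Between the untreated libraries *Wnt5a* was the 1 gene of the 10 with a change of at least 2-fold, against 4.49% of tested genes, and also the 1 past 1.5-fold, against 12.0%. Between the butyrate libraries 0 of the 10 reached 2-fold, against 8.62% of tested genes, and 0 reached 1.5-fold, against 21.6%. Over the 10 genes the median difference from 48 h to 72 h was 0.14 untreated and 0.19 with butyrate, against 0.00 and −0.01 over all tested genes.

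As *Wnt5a* is known as a product of mesenchymal cells, their markers were followed beside it. The 15 mesenchymal marker genes summed to 323.1 and 343.0 normalised counts at 48 h, untreated and with butyrate, and to 391.0 and 368.3 at 72 h. At 72 h the sums thus lay close together, while *Wnt5a* differed 2.10-fold. Of the 4 that passed the filter, 2 were higher and 2 lower with butyrate at 72 h, and their median log2 fold change was 0.13. *Pdgfrb*, a receptor of pericytes and fibroblasts, had 80 against 68 counts at 48 h, and 105 against 55 at 72 h, with log2 fold changes of −0.40 (−0.90 to 0.08) and −0.79 (−1.30 to −0.32). At 72 h *Vim* was at −0.01 (−0.39 to 0.36), *Thy1* at 0.27 (−0.07 to 0.62) and *Pdgfra* at 0.34 (−0.90 to 1.67). Markers of other cell types were also highest in the untreated library at 72 h. *Pecam1*, the 1 of 6 endothelial marker genes that passed, had 45 against 23 counts at 72 h, or −0.81 (−1.63 to −0.08) as log2, and the list summed to 34.8 to 58.3 normalised counts. *Ret*, a receptor of enteric neurons, had 285 against 88, or −1.56 (−1.93 to −1.22), in a list of 6 neuron and glia genes that summed to 166.0 to 335.7 and had *Sox10* and *S100b* at 0 counts. The part of these cell types and of mesenchymal cells in the *Wnt5a* values was not tested. *Wnt5a* also shares 4.18% of its 31-base words with other genes, most with the antisense *Gm2670*.

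Per kb of exon, *Lrp5*, *Fzd5* and *Lrp6* were the 3 highest of the 10 genes in every library, at 231 to 338 normalised counts per kb, and *Wnt5a* was the lowest in every library, at 4.87 to 13.6. With all exons as the length, *Fzd5* ranked 1 in the butyrate library at 48 h and in the untreated library at 72 h. It ranked 2 in the untreated library at 48 h and 3 in the butyrate library at 72 h. Between these ends, *Fzd1* held rank 4 in both untreated libraries and ranks 7 and 6 with butyrate, while *Ror2* held ranks 7 and 6 untreated and 4 in both butyrate libraries. *Fzd8* and *Fzd4* took ranks 8 and 9 in all but the butyrate library at 48 h, where they did not differ beyond counting error. Other neighbours not separated by counting error were *Fzd5* and *Lrp6*, *Fzd1* and *Fzd6*, and *Fzd7* and *Ror2* in the untreated library at 48 h, and *Fzd1* and *Fzd6*, and *Ror2* and *Fzd7* in the untreated library at 72 h. With butyrate they were *Ror2* and *Fzd7*, and *Fzd7* and *Fzd6* at 48 h, and *Ror2* and *Fzd6*, and *Fzd1* and *Fzd7* at 72 h. The ranks depend on the length used. With the longest transcript instead, *Lrp6* (9368 bases, against 13672 for all exons) lay above *Fzd5* (6915 by either length) in every library. In both untreated libraries *Fzd6* then lay above *Fzd1*.

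**Figure D4:**
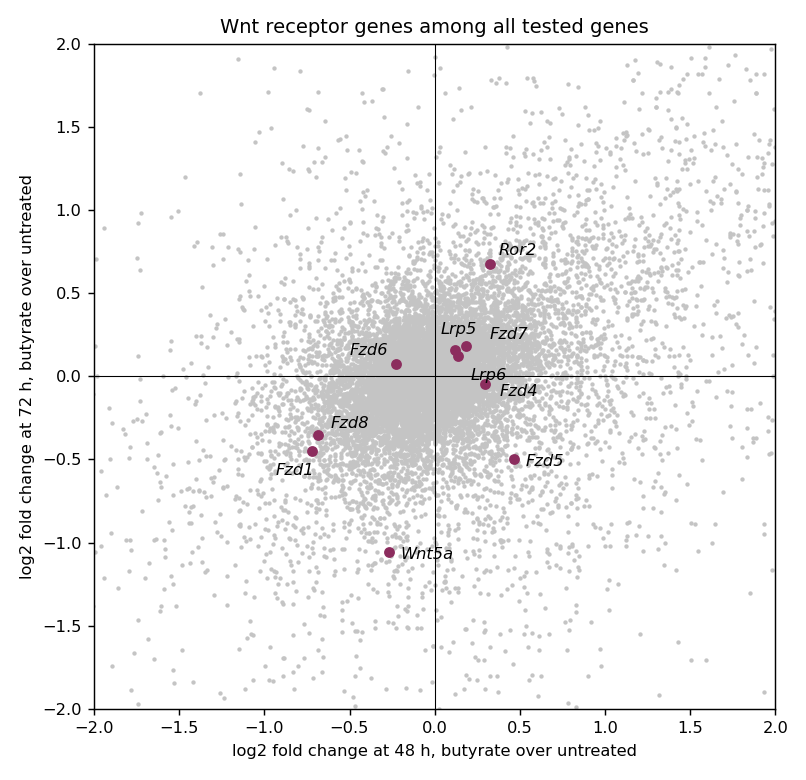
Log2 fold change at 72 h (vertical) against that at 48 h (horizontal), butyrate over untreated, for the tested genes (grey) and the 10 Wnt receptor, co-receptor and ligand genes (purple). *Fzd1* and *Fzd8* lie at the lower left, *Ror2* at the upper right and *Fzd5* at the lower right of the cloud, and 531 tested genes fall outside the axes.

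Other genes that act at the receptor were taken from lists chosen by function. Over all tested genes, 10.0% at 48 h and 8.31% at 72 h were past 2-fold in either direction, which is the background for the counts in this and the other lists. *Ryk*, a further Wnt receptor, had the highest mean normalised count of the other receptors and co-receptors, with log2 fold changes of 0.10 and 0.26. Of 6 such genes 4 passed the filter, 1 (*Mcam*) was at least 2-fold higher at 48 h and 0 at 72 h, with medians of 0.08 and 0.65. *Ptk7*, a pseudokinase of planar cell polarity, had 431 against 464 counts at 48 h, and 405 against 635 at 72 h, with −0.07 (−0.26 to 0.13) and 0.78 (0.60 to 0.96). *Mcam* had 22 against 64 counts at 48 h, and 40 against 58 at 72 h. *Ror1*, the close relative of *Ror2*, had 1 to 3 counts in each library and was below the filter. Of 5 R-spondin receptors and receptor-clearing ligases all passed and 0 reached 2-fold at either time, with medians of 0.04 and 0.37. *Lgr5* was at −0.94 (−0.99 to −0.88) at 48 h and 0.79 (0.74 to 0.84) at 72 h, while *Lgr4* was at 0.67 (0.61 to 0.74) and 0.19 (0.12 to 0.26).

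Among the 18 other Wnt ligand genes, 6 passed the filter, and *Wnt1*, *Wnt2*, *Wnt2b* and *Wnt3a* were at 0 counts in all 4 libraries, which allows 3 counts per library. *Wnt3*, made by the epithelium itself, had the most counts, with 239 against 243 at 48 h, and 114 against 121 at 72 h, and log2 fold changes of −0.15 and 0.21. The library of its highest level was thus not that of *Wnt5a*. *Wnt7b* had 4 against 28 counts at 48 h, and 11 against 34 at 72 h, and *Wnt6* had 4 against 16 at 48 h, and 8 against 41 at 72 h. Both were higher with butyrate, *Wnt7b* by 2.37 (1.12 to 4.61) and 1.67 (0.74 to 2.89) and *Wnt6* by 1.61 (0.20 to 3.87) and 2.35 (1.38 to 3.79) on the log2 scale. *Wnt5b*, the closest relative of *Wnt5a*, had 33 against 74 counts at 48 h, and 18 against 42 at 72 h. Its log2 fold changes of 0.97 (0.38 to 1.63) and 1.30 (0.52 to 2.24) were above 0 where those of *Wnt5a* were below it. At 48 h, however, the *Wnt5a* interval of −0.91 to 0.37 held 0. *Wnt5b* is named here after its values were seen. At least 2-fold higher with butyrate were 2 of the 6 genes at 48 h and 3 at 72 h, and 0 were as much lower. These ligand genes had few counts.

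**Figure D5:**
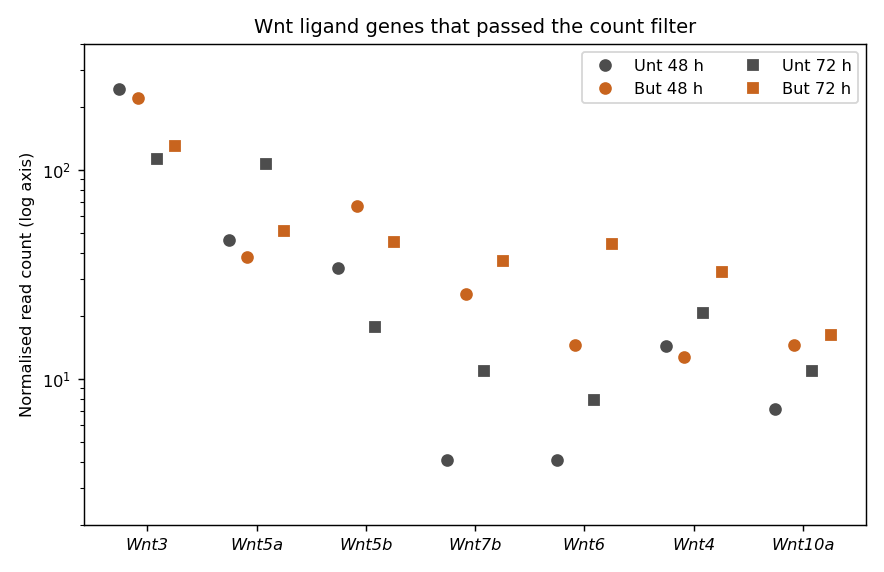
Normalised read counts (log axis) of *Wnt5a* and the 6 other Wnt ligand genes that passed the filter, in the untreated (Unt, grey) and butyrate (But, orange) libraries at 48 h (circles) and 72 h (squares). *Wnt5a* is highest untreated at 72 h, whereas *Wnt5b*, *Wnt6* and *Wnt7b* are higher with butyrate at each time.

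Of the genes for release of Wnts and for R-spondins and other agonists, 2 of 7 passed, *Wls*, the carrier of Wnts to the cell surface, at −0.20 and −0.02, and *Porcn*, which adds their lipid, at −0.10 and 0.45. Of 16 inhibitors outside the cell 9 passed, 3 were at least 2-fold higher and 1 lower at 48 h, and 3 were higher and 0 lower at 72 h. *Dkk1*, which was below the filter, had 29 against 7 counts at 72 h, a log2 value of −1.79 (−3.36 to −0.70). *Sfrp5*, a decoy for Wnts, was the lower one at 48 h, with 18 against 4 counts at 48 h, and 12 against 7 at 72 h. *Dkk3* had 3 against 14 counts at 48 h, and 0 against 12 at 72 h. The filter was passed by *Dkk3* only through the butyrate libraries and by *Sfrp5* only through the untreated ones. The directions counted for *Dkk3* and *Sfrp5* were thus set in advance by the filter. *Kremen1*, a receptor for Dkk proteins and the inhibitor gene with the highest mean count, was at 0.10 and −0.21. Of the 11 chaperones and partners of Frizzled or Lrp with a count, 9 passed, 3 were at least 2-fold higher at 48 h and 2 at 72 h. These included *Adgra2*, a Wnt7 co-receptor, with 12 against 99 counts at 48 h, and 18 against 50 at 72 h, and at 48 h *Gpc3*, a glypican, with 4 and 46 counts. *Tmem59*, which binds Frizzled and had the highest mean count of these, was at 0.04 and −0.23. *Reck*, counted as at least 2-fold higher at both times, had 5 against 18 counts at 48 h, and 2 against 11 at 72 h. It too passed the filter only through the butyrate libraries, where it was high.

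Inside the cell the median over 20 tested genes of the cytoplasmic signal and its nuclear effectors was −0.06 at 48 h and 0.06 at 72 h, and *Ctnnb1*, the β-catenin gene, was at 0.17 and 0.07. At least 2-fold higher was 1 of the 20 at each time, *Tcf7l1* with 2.31 (1.95 to 2.72) at 48 h and *Lef1* with 1.16 (0.79 to 1.55) at 72 h, both DNA-binding partners of β-catenin. The 20 genes of planar cell polarity and the Wnt5a branch, all tested, had medians of −0.06 and 0.03, with the GTPase gene *Rac1* at 0.07 and −0.16. Of these, 2 were at least 2-fold higher at 48 h, *Prickle4* with 6 and 17 counts and *Daam2* with 7 and 17, both with log2 intervals that held 0 (−0.08 to 2.96 and −0.24 to 2.62), and 0 were at 72 h. Of 13 tested target genes of β-catenin, 6 were higher and 7 lower at 48 h and 13 were higher at 72 h, with medians of −0.00 and 0.60, whereas 49.7% of all tested genes were lower at 72 h. The 72 h values of *Cd44*, 0.02 (−0.06 to 0.09), and *Ephb3*, 0.05 (−0.06 to 0.16), had intervals that held 0. *Nkd1*, a feedback inhibitor, was at −0.00 (−0.20 to 0.19) and 1.82 (1.63 to 2.01), and *Notum*, which removes the lipid of Wnts, at 1.83 (1.26 to 2.52) and 1.85 (1.30 to 2.50).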

How the data were processed

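Bulk RNA-seq was measured in 4 libraries of mouse colonoids. The authors deposited counts per gene, quantified with kallisto (0.44.0, GRCm38.p6 in the submitters' processing notes) and summed with tximport, so the whole-number counts are rounded estimates that depend on how reads shared between genes were split. The table has no columns of the authors' own comparisons.

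Tested genes had over 10 counts in 2 or more libraries. Size factors came from DESeq2 1.42.0 and, as an alternative, TMM factors from edgeR 4.0.16 in R 4.3.3; Python 3.11.15 served for the rest, with matplotlib 3.10.9, scipy 1.17.1, pandas 2.3.3 and numpy 2.4.6. Intervals for pairs of counts are exact Clopper-Pearson (95%), those for differences between times are normal approximations from the counts. As the reads carried no molecular identifiers and may repeat a molecule, these intervals, and the floor of 3 counts, hold counting error alone. Lengths are all annotated exons of a gene, from GENCODE for GRCm38, in which 35907 of 36144 names were found. Promoters came from RefSeq (GRCm38.p6), with 5 of the 10 genes matched; protein sequences were not used here. The fold change calculation was tested on simulated data.

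The genes and lists were chosen with earlier results of these data known. All 10 genes were named, and from each list the gene with the highest mean normalised count and the 2 with the largest log2 fold change at either time; other genes were named after their values were seen. Alternatives were TMM and total count scaling (with and without mitochondrial genes), pseudocounts of 0.1 and 5, and other lengths. For counts of genes past a threshold they were also a filter on mean normalised count of 50, no filter, and 1.5-fold.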

Additional observations from a re-analysis of the deposited data

Results flagged for a closer look

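*Fzd5* stood on opposite sides of 0 under the same contrast at the 2 times. Its log2 fold change with butyrate was −0.49 at 72 h and 0.47 at 48 h. With 1 library per condition the difference between the times was not tested against replicate spread. Its counting interval of −1.09 to −0.83 covers counting error only.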

How the results depend on the processing

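No paired analysis was possible because the groups compared held 1 library each and so shared fewer than 2 replicate numbers, and no library could be left out for the same reason. The 2 times were not taken as replicates of a treatment. Of 200 log2 fold changes of the 10 genes recomputed under other scalings and pseudocounts, 198 stayed within their counting intervals. Values near 0 changed sign with total count scaling, *Fzd4* with butyrate at 72 h from −0.04 to 0.01, *Fzd4* from 48 h to 72 h with butyrate from 0.02 to −0.01, and *Fzd6* from 48 h to 72 h untreated from 0.01 to −0.07 (−0.01 without mitochondrial genes). The 2 values outside their intervals, with total count scaling, were the untreated differences from 48 h to 72 h of *Lrp5*, 0.07, and *Lrp6*, 0.14. All 50 recomputed shifts between the times stayed within theirs, those of *Fzd7* and *Lrp6*, near 0, with changes of sign. At 1.5-fold in place of 2-fold, 2 of the 10 genes passed at 48 h and 2 at 72 h. The *Lrp6* to *Lrp5* ratio, below 1 per kb of all exons, was 1.18, 1.19, 1.24 and 1.21 with the longest transcript, and 1.25, 1.26, 1.31 and 1.27 as raw counts, in the order untreated 48 h, butyrate 48 h, untreated 72 h and butyrate 72 h. The number of genes at the same place in the order of levels in all libraries was 1, and 2 with the longest transcript or 5 as raw counts. Of 80 recomputed shares of Frizzled genes 40 moved, and the *Fzd5* share as raw counts was 42.4%, 53.6%, 50.7% and 40.7% in that order. Depth limits *Wnt5a* most, at 42 to 108 counts.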
